A study of Mus musculus with 14 samples.

Results

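The ONECUT2 sites described here are all 7268 sites that the authors' deposited table lists as differing between organoids taken through the RANKL protocol and organoids in ENR medium, out of 62318 genomic regions in the analysed files (the other 55050 are H3K27ac regions). They were taken whole, with no choice by place or gene. The change at a site is the authors' log2 mean normalised read count with RANKL minus that in the control, each a mean of 3 libraries. The organoids were grown from the small intestine of 1 female Lgr5GFPDTR/+ mouse, whose cells carry a GFP and diphtheria toxin receptor insertion at Lgr5. The labels name the line as line26 wild type with this allele, which both arms share. The RANKL arm had 3 days in ENR (EGF, Noggin and R-spondin 1) with 3 µM CHIR99021, which activates Wnt signalling, and 1.5 mM valproic acid, which inhibits histone deacetylases. It then had 1 day in ENR and was given 100 ng/mL RANKL for 6 days, while the control arm is labelled as 6 days in ENR medium. Every comparison is therefore of the whole protocol, and RANKL, CHIR99021 and valproic acid cannot be told apart. ChIPmentation, in which a transposase adds sequencing adapters to chromatin held by an antibody, gave 3 ONECUT2 and 3 H3K27ac libraries per arm from 3 differentiation experiments on 1 mouse line, so p-values measure the spread between experiments.

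ONECUT2 belongs to the ONECUT family of transcription factors, which bind DNA through a single CUT domain and a homeodomain. Its relative ONECUT1, first named HNF6, is known from liver and pancreas, and ONECUT2 is known in the small intestine. RANKL binds the receptor RANK on gut epithelial cells and, through NF-κB, drives them to become microfold (M) cells, which carry antigen from the gut lumen to lymphoid tissue. H3K27ac, acetylation of histone H3 at lysine 27, marks active promoters and enhancers.

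The sites carried the letters that ONECUT proteins are known to bind. The core was searched on both strands in 2 forms, the palindrome ATCGAT and the form ATCAAT, which reads ATTGAT on the opposite strand. Sequence was at hand for RefSeq windows (GRCm38.p6, the assembly of mm10) from 250 bases before to 50 bases after 32851 gene starts, so the search covers sites near starts only. A listed site overlapped 426 of these windows. ATCGAT was found in 16.2% of windows with a site and in 0.925% of all windows, and ATCAAT in 27.2% and 7.54%. The matches lay at the middle of the sites. Among the 153 sites whose central 81 bases were covered by a window, 24.2% held ATCGAT there and 35.9% held ATCAAT, against 0.195% and 2.19% of stretches of that length in all windows, and no site held both. The AP-1, ETS and HNF4 motifs, also searched on both strands, stayed near the level of all windows in those central stretches or had too few matches to compare: the AP-1 motif TGANTCA was in 2.61% against 2.42%, the ETS motif AGGAAGT in 3.92% against 2.36%, and the HNF4 motif CAAAGTCCA in 1 site, 0.654% against 0.155%. Matches of different motifs may share letters, as TGANTCA can with ATTGAT. A match is a description and not a shown binding event.

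The sequences below are shown because each lies under the middle of a listed site just before a gene's start. They are RefSeq sequence (GRCm38.p6), 5′ to 3′ in the direction of the gene, with the core match in capitals. The first 4 belong to the protein-coding genes whose start windows held a match at the sites of largest rise, and the last 4 to genes described further on.
Arsa (chr15:89477486-89477551, minus strand): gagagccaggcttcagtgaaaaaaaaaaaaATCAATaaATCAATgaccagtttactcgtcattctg
Egln3 (chr12:54204024-54204089, minus strand): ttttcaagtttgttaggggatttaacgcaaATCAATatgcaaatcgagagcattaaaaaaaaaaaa
Ccdc92 (chr5:124862281-124862346, minus strand): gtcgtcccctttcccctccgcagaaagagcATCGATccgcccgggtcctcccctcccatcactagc
Chaf1a (chr17:56040166-56040207, plus strand): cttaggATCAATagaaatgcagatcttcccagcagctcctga
Ccl20 (chr1:83116647-83116712, plus strand): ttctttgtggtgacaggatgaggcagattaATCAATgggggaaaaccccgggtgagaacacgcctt
Hnf4a (chr2:163506768-163506833, plus strand): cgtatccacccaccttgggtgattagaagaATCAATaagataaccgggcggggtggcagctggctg
Os9 (chr10:127121268-127121333, minus strand): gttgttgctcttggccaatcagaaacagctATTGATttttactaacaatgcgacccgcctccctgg
Churc1 (chr12:76765497-76765537, plus strand): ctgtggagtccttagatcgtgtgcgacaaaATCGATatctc
Arsa, which encodes a lysosomal sulfatase, holds 2 copies of ATCAAT, and its site went from 12.2 to 186 mean reads in the authors' deposited table. At Egln3, an oxygen-sensing prolyl hydroxylase gene, the authors' means were 6.21 and 73.6 reads. The Os9 and Churc1 windows hold sites that were already strong in the control, at 255 and 206 mean reads, and rose little, to 361 and 284.

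**Figure D1:**
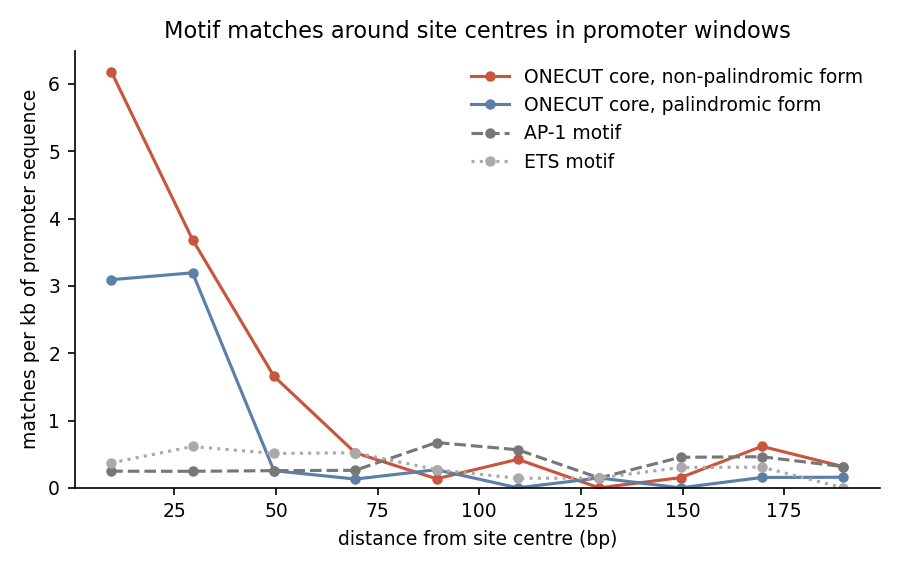
Matches of 4 motifs per kb of promoter-window sequence (y axis) by distance from the centre of the nearest listed ONECUT2 site (x axis, bp). The points are bins of 20 bp over all windows with a site. Within 20 bp of the centre, the non-palindromic core stands at 6.18 and the palindromic core at 3.09 matches per kb, and both fall to the level of the AP-1 and ETS motifs beyond 60 bp.

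The 2 forms of the core went with different control reads and rises, while their RANKL reads were nearer each other. Sites with ATCGAT had a median of 17.2 reads in the control in the authors' means, sites with ATCAAT 9.45 and sites with neither 8.22. In the same order the RANKL medians were 49.5, 44.1 and 29.1 reads, and the median rises 1.56, 1.87 and 1.82 on the log2 scale. The 76 of these 153 sites that rose less held ATCGAT in 31.6% and ATCAAT in 30.3%, while the 77 that rose more held them in 16.9% and 41.6%. The share with either form was 61.8% and 58.4%. These are descriptions of 153 sites near starts and carry no test.

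Nearly all listed sites gained ONECUT2 signal. By the authors' deposited values, 7261 sites were higher with RANKL and 7 were lower. The table gives a p-value rank that implies 7734 tested sites, of which 94.0% passed the authors' adjusted p (FDR) of 0.05. The rise was 1.99 at the median on the log2 scale (quartiles 1.57 and 2.54), or 3.98-fold. It was at least 1 at 96.4% of sites, at least 2 at 49.7%, at least 3 at 12.9% and at least 4 at 191 sites. The authors' mean reads per site had a median of 6.16 in the control and 25.9 with RANKL. At 59 sites the control mean stood at 1 read, the lowest value in the table, so their fold depends on that floor. At the edge of the list, the 5 sites with the highest FDR, 0.0487 to 0.0496, had rises of 1.01 to 1.30. Sites beyond it were not analysed here. Because the table has no values per library and the sources used here do not give its normalisation, the direction shared by nearly all sites describes the authors' scaled means. A difference in the efficiency of the immunoprecipitation between the arms was not tested.

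**Figure D2:**
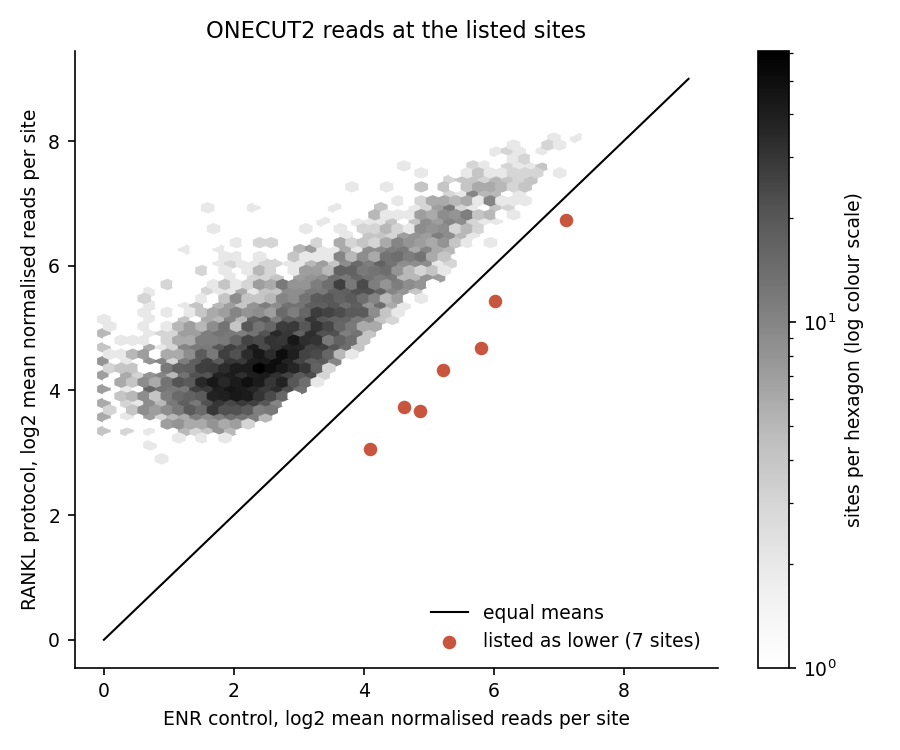
The authors' log2 mean normalised reads per ONECUT2 site in ENR control (x axis) and with the RANKL protocol (y axis), as hexagons shaded by the number of sites on a log colour scale. All but the 7 sites drawn in red lie above the line of equal means, and sites with few control reads lie farther above it than sites with many. Only sites that passed the FDR are listed, and the smallest listed rise in the fifth with fewest control reads was 1.43, so the listing shares in this pattern.

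Of the 10 largest listed rises none lay within 2 kb of a gene start, leaving aside the one at Mapre2, on a chromosome for which no table of starts was used. The site with the largest rise went from 1 to 147 mean reads in the authors' table and lies in a gene-poor stretch 1152 kb from Cntnap5a, its nearest protein-coding gene. A site inside Cntnap2, a neurexin-family adhesion gene, went from 1.33 to 98.0 reads, and one 12.8 kb from Slc5a6, the sodium-dependent vitamin transporter gene, from 1 to 66.1. Sites in Taok1 and Med13 (a Mediator subunit gene) rose by 5.93 and 5.67 on the log2 scale in the authors' means. The other sites among the 10 largest, near Mapre2, Ccm2l, Hs6st1 (104 kb away), Zc3h15 and Mef2c, rose by 5.38 to 5.58. Of these 10 sites, 7 lay in an H3K27ac region, and H3K27ac was higher with RANKL at all 7 by edgeR (14.8% of all tested regions were higher and 21.0% lower at an adjusted p under 0.05). In the region near Zc3h15, H3K27ac read 1.35, 1.76 and 2.81 CPM (counts scaled to the size of the library) in the control libraries and 52.8, 43.5 and 43.2 CPM with RANKL, and the log2 fold was 4.55 ± 0.21 (SE, n = 3 and 3). In the Cntnap2 region it read 2.71, 3.52 and 1.88 CPM against 35.7, 34.4 and 35.4 CPM. The groups did not overlap at either region, and the share of all regions without overlap was not counted.

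The sites with the most reads were already strong in the control and rose less. The 10 highest RANKL means in the authors' table, from 270 reads to the 361 reads 148 bases before the start of Os9 (an endoplasmic reticulum lectin gene), had control means of 76.3 to 255 reads and rises of 0.46 to 2.02 on the log2 scale. They lay near Os9, Stac, Smndc1, Rnf19a, Glis3, Acvr2a (409 kb away), Churc1, Hibadh and, with 2 sites, Prdm16, a zinc finger regulator gene. Over all tested regions with a site, H3K27ac was higher at 22.6% and lower at 26.3%. Of the 8 of these 10 sites in an H3K27ac region, it was higher at 3 (Smndc1, Hibadh and 1 Prdm16 site). It was lower at 3 (Os9, Stac and Churc1) and not called at the others. Smndc1, a splicing factor gene, had the largest of these differences, with 19.1, 16.6 and 18.8 CPM in the control and 60.3, 52.8 and 47.7 CPM with RANKL.

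The 7 sites listed as lower fell by 0.39 to 1.20 on the log2 scale in the authors' means. The strongest lies in Rad51b, a recombination gene, with 139 control and 106 RANKL mean reads and the authors' FDR of 0.0373. A site near Rabep1, an endosomal trafficking gene, had 55.7 and 25.7 reads, and a site 21.2 kb from Vdr, the vitamin D receptor gene, had 24.7 and 13.3. The others lay in Stard13 and Dsp and near E330021D16Rik and Cdh26. Of the 7 sites, 5 lay in an H3K27ac region and H3K27ac was lower at all 5, by 1.03 to 1.90 on the log2 scale. Over all tested regions H3K27ac was lower at 21.0%, and at 26.3% of those with a site. Near Rabep1 it read 31.1, 33.8 and 40.5 CPM in the control and 8.93, 13.3 and 6.51 CPM with RANKL.

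Most sites were away from gene starts and were spread over many genes. Of the 7268 sites, 50.6% lay within the span of a protein-coding gene and 6444 (88.7%) were assigned to 4537 nearest genes within 100 kb, which is 20.7% of 21896 protein-coding genes. A site may act on another gene than its nearest. Of 6995 sites on chromosomes with a table of starts, coding or noncoding, 14.9% lay within 2 kb of one, against 20.5% of H3K27ac regions, and the median distance to a start was 19.5 kb. Sites at starts rose by a median of 1.76 in the authors' means, sites elsewhere inside genes by 2.02 and intergenic sites by 2.07. Their control means had medians of 8.70, 5.93 and 5.69 reads. Across the numbered autosomes and chromosome X the median rise was alike, from 1.89 on chromosome 19 to 2.12 on chromosome 9.

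Of the 4537 genes, 3279 had 1 site and 397 had 3 or more. Rad51b had 14 sites, with changes from -0.39 to 5.05 in the authors' means. Pde4d, a cAMP phosphodiesterase gene, had 11, and Adgrl3, Maml3 (a Notch coactivator gene) and Ptprd had 9 each. Adk followed with 8, and Cntnap2, Cers6, Rarb (a retinoic acid receptor gene), Sgms1, Auts2 and Lingo2 tied at 7. These are long genes. The median span was 129 kb for genes with 3 or more sites, 42.0 kb for genes with any site and 17.1 kb for all protein-coding genes, and a longer gene can take up more sites as the nearest gene.

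Many sites lay outside the acetylated regions. Of all listed sites, 40.6% overlapped an H3K27ac region by at least 1 bp, touching 5.32% of those regions, and the other 4320 lay a median of 6.17 kb from the nearest one. Sites outside rose by a median of 2.09 in the authors' means, from 5.04 to 22.3 reads, and sites inside by 1.83, from 8.85 to 34.2 reads.

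H3K27ac at ONECUT2 sites changed in both directions. Of 2925 tested regions with a site, 662 (22.6%) were higher with RANKL and 769 (26.3%) lower by edgeR, against 14.4% and 20.7% of regions without one. Regions with a site had more H3K27ac to begin with (a median of 17.4 against 8.18 CPM in the control). At like H3K27ac signal lower calls were less frequent with a site at the stronger levels: in the middle, next and strongest of 5 levels of mean signal, 8.29%, 29.7% and 47.5% of regions with a site were lower, against 13.1%, 37.3% and 54.3% of those without. In the 2 weakest levels 0.645% and 1.74% were lower with a site and 0.250% and 1.64% without. Higher calls in the middle, next and strongest levels were 28.5%, 29.5% and 15.7% with a site and 20.9%, 19.6% and 11.2% without. At the weakest level they were 6.45% with a site and 7.95% without, and at the second weakest 22.4% and 12.6%. Near starts 7.88% were higher and 54.1% lower, close to the 6.82% and 49.0% of all regions near starts. Away from starts 27.2% were higher and 17.9% lower, against 16.9% and 13.9% of all such regions. The split depends on scaling: after removal of the trend of fold with signal, 847 regions with a site were higher and 453 lower, and with library size only 784 and 632.

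H3K27ac was more often higher at sites where ONECUT2 rose more. Sites were put into 5 equal groups by the listed rise, which used no H3K27ac value. From the smallest rise to the largest, the share of sites in a region with higher H3K27ac was 6.97%, 12.7%, 17.1%, 30.0% and 62.7%, and the share with lower H3K27ac was 41.2%, 33.3%, 23.8%, 14.8% and 5.86%. The median H3K27ac log2 fold went from -0.27 through 0.00 in the middle group to 0.87. The groups differed in other ways too. Sites of the smallest rise had 13.7 control reads at the median in the authors' means and 20.2% lay at a start, and those of the largest rise had 2.86 reads and 6.46%. The rise is taken against the control mean, so rise and control reads are linked by definition. The RANKL means were alike, at 30.0 and 27.1 reads. Median H3K27ac in the control fell from 23.9 to 6.24 CPM across the groups, while with RANKL it was 18.9 CPM in the group of smallest rise and 17.3 CPM in that of largest rise.

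**Figure D3:**
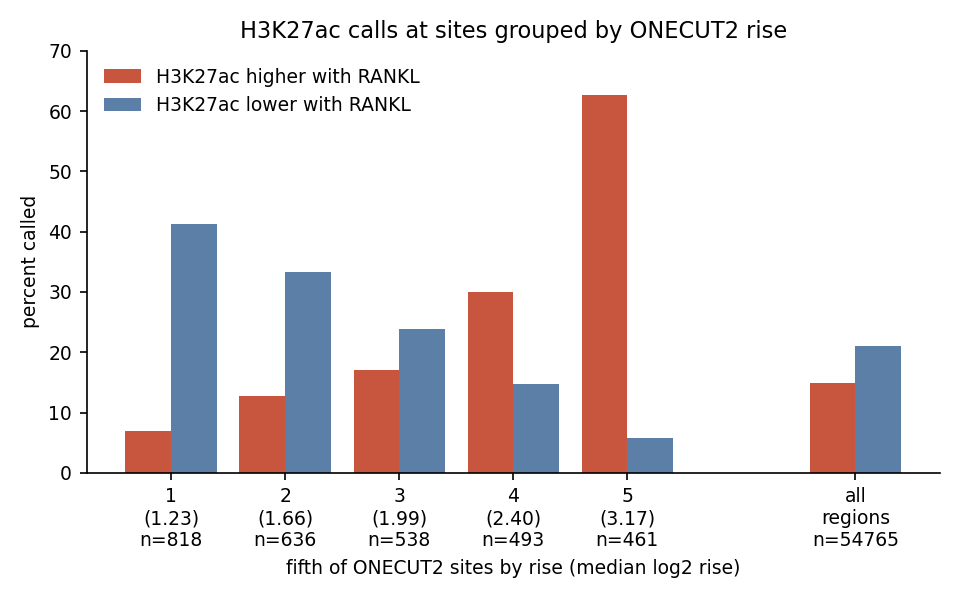
Percent of ONECUT2 sites in a tested H3K27ac region at which H3K27ac was called higher (red) or lower (blue) with RANKL, in 5 groups of sites from smallest to largest ONECUT2 rise, with the median log2 rise and number of tested sites under each, and for all tested regions. Higher calls go from 6.97% to 62.7% and lower calls from 41.2% to 5.86%, against 14.8% and 21.0% of all regions.

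The order held away from starts, where higher calls went from 8.596% to 65.7% between the groups of smallest and largest rise. At starts it did not hold through the middle groups: higher calls were 2.34%, 8.79%, 5.04%, 7.29% and 34.7%, the last over 49 sites. A larger share in the group of largest rise was also seen among regions of like H3K27ac strength, divided into 5 levels by mean signal. At the weakest level 0% and 11.4% were higher in the groups of smallest and largest rise, at the next 1.72% and 48.9%, at the middle level 5.70% and 75.2%, then 8.91% and 78.5%, and at the strongest 7.52% and 55.3%. Across 2946 sites, the ONECUT2 rise and the H3K27ac log2 fold had a Pearson r of 0.596 and a Spearman rho of 0.489, and the RANKL mean and the H3K27ac log2 fold -0.00 and -0.01. These describe sites that share the same 6 H3K27ac libraries.

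The share of all H3K27ac reads in regions with a site was 7.91%, 7.70% and 7.92% in the control libraries and 8.27%, 8.31% and 8.19% with RANKL. The groups did not overlap, with a difference of 0.415 percentage points and an exact permutation p of 0.1 (two-sided), the smallest that 3 against 3 can give. In the regions of the group of largest rise, the share was 0.571%, 0.590% and 0.574% in the control and 1.18%, 1.19% and 1.20% with RANKL, 2.06 times the control mean. In those of the smallest rise it was 2.61%, 2.52% and 2.62% against 2.30%, 2.30% and 2.26%. The exact permutation p was 0.1 for both.

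Of 26 listed genes of the RANK and NF-κB pathway, 9 had a site (34.6%). The share was 20.7% over all protein-coding genes and 26.6% over those with an H3K27ac region. All 18 sites of the 9 genes were higher, as were 7261 of all 7268 listed sites. H3K27ac was tested at 7 of these sites and was higher at 5 and lower at none. Beside this and the list counts below stand the 22.6% higher and 26.3% lower of all tested regions with a site. Tnfrsf11a, which encodes the RANKL receptor RANK, had 2 sites within the gene, 4.12 and 13.9 kb from its start, that went from 2.04 to 17.6 and from 4.03 to 25.0 mean reads in the authors' table. H3K27ac at the first read 34.6, 30.0 and 37.7 CPM in the control and 79.6, 82.1 and 67.8 CPM with RANKL, and the log2 fold was 1.17 ± 0.11 (SE, n = 3 and 3). At the second the log2 fold was 0.61 ± 0.14 (adjusted p = 0.000113). The control and RANKL libraries did not overlap at either, and the share of all regions without overlap was not counted.

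Traf2, an adaptor that binds receptors of the TNF family, had among the strongest H3K27ac differences of all regions with a site. It read 12.9, 15.3 and 20.4 CPM in the control and 150, 141 and 135 CPM with RANKL (log2 fold 3.13 ± 0.12, adjusted p = 1.52e-97). The ONECUT2 site in it was modest, at 2.32 and 13.7 mean reads in the authors' table. Map3k14 encodes NIK, the kinase of the non-canonical NF-κB branch. Its site was one of strong binding, from 80.3 to 250 reads, and H3K27ac read 25.3, 20.8 and 22.1 CPM against 73.2, 61.0 and 63.2 CPM. The feedback gene Tnfaip3 (A20) had 4 sites that rose by 1.71 to 3.63 on the log2 scale in the authors' means, all 55.0 to 88.0 kb from the gene and none in an H3K27ac region. Nfkbiz, which encodes an atypical IκB protein, also had 4, and H3K27ac was higher at 1 of them (log2 fold 1.29 ± 0.12). Bcl3 had 3 sites, and Tnfrsf11b (the decoy receptor osteoprotegerin), Nfkb1 and Rela had 1 each. Nfkb2 and Relb, the transcription factors of the non-canonical branch, were assigned none.

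M cell factors were mixed. Spib and Sox8, transcription factors needed for M cell maturation, had no listed site, nor did Atoh8. Esrrg, a nuclear receptor gene, had 3 sites with rises of 2.32 to 2.78 in the authors' means, and at the only one in a region H3K27ac was higher by 1.33 ± 0.31 on the log2 scale (adjusted p = 8.87e-05). Prdm1, the repressor Blimp-1, had a site that went from 20.5 to 79.0 mean reads, where H3K27ac was lower by -0.67 ± 0.11 (adjusted p = 5.0e-08). The list of M cell surface and uptake genes had a site at 11 of 21 (52.4%), where 20.7% of all protein-coding genes had one. Of its 7 sites with tested H3K27ac, 1 was higher (Marcksl1, 0.81 ± 0.17) and 1 lower (Ncald, -0.35 ± 0.14). Over all tested regions with a site the shares were 22.6% and 26.3%. Gp2, an M cell receptor for bacteria, had its site 47.9 kb away with 10.05 and 56.4 mean reads in the authors' table. There H3K27ac read 5.604, 3.85 and 4.50 CPM in the control and 5.71, 6.64 and 4.58 CPM with RANKL, groups that overlap (adjusted p = 0.575).

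Chemokine genes had a site at 6 of 12, where 20.7% of all protein-coding genes had one. The site at the start of Ccl20, a chemokine made by the epithelium over lymphoid follicles, is the one whose sequence is printed above. It went from 14.3 to 81.2 mean reads in the authors' table, and H3K27ac there was 23.0, 23.5 and 24.0 CPM in the control and 26.1, 30.2 and 27.01 CPM with RANKL (adjusted p = 0.195). Cxcl16, a membrane-bound chemokine gene, had 2 sites, one from 2.74 to 59.0 and one from 16.8 to 109 mean reads. H3K27ac at the second was 56.8, 52.0 and 59.3 CPM against 147, 140 and 143 CPM. Ccl25 had 2 sites with opposite H3K27ac calls, -1.12 ± 0.15 at the site next to the gene and 0.63 ± 0.20 at the one 52.9 kb away.

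**Figure D4:**
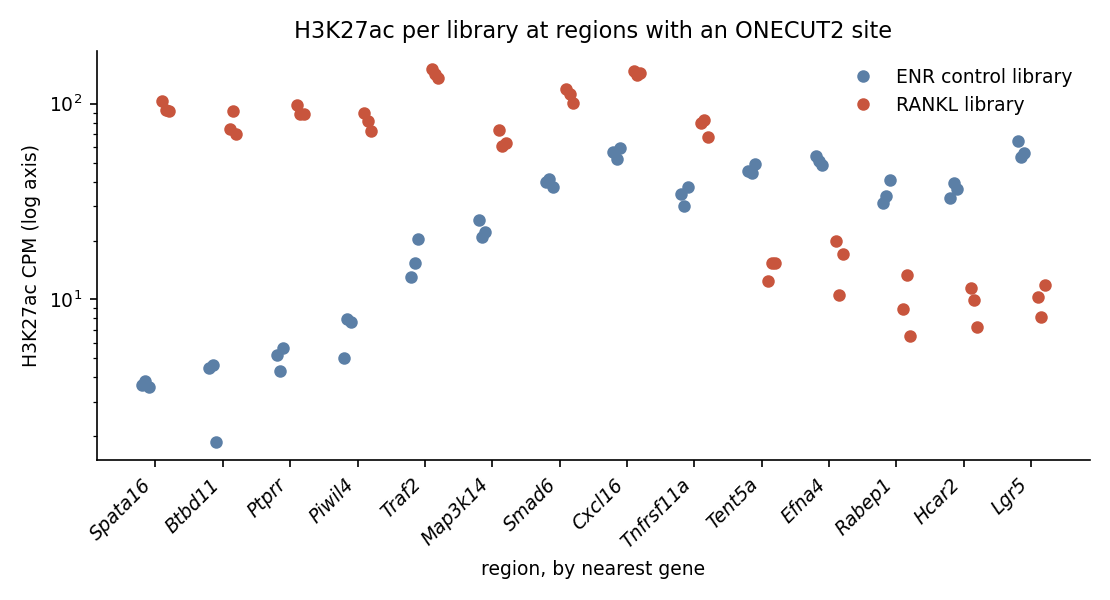
H3K27ac CPM (log axis) in each of the 3 control and 3 RANKL libraries at 14 regions that hold an ONECUT2 site, ordered by log2 fold and named by nearest gene. The RANKL points lie above all control points from Spata16 to Tnfrsf11a and below them from Tent5a to Lgr5. The regions include those of smallest H3K27ac adjusted p in each direction, whose separation follows from that choice.

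Transcription factors of intestinal identity had a listed site at 22 of 28 genes (78.6%), among the highest shares of the 26 lists. The share was 20.7% over all protein-coding genes and 26.6% over those with an H3K27ac region. Genes with a site had a median span of 42.0 kb against 17.1 kb for all protein-coding genes, and no list share is adjusted for gene length. Of 45 sites, 44 were higher and 1, near Vdr, was lower in the authors' table, where 7261 of all 7268 listed sites were higher. Gata4, a factor of the proximal intestine, had 5 sites within the gene, of which the strongest went from 21.3 to 94.7 mean reads. Nr5a2 and Tcf7l2, the latter a Wnt effector, had 5 each as well. The largest rise of the group was inside Tcf7l2, from 2.50 to 54.8 reads, followed by 1 site near the pioneer factor gene Foxa1, from 1.73 to 32.5 reads. A Hnf4a site 69 bases before the start, whose sequence is shown above, went from 52.0 to 108 reads. H3K27ac there was 52.6, 47.6 and 46.9 CPM in the control and 42.8, 33.5 and 30.6 CPM with RANKL, lower by -0.48 ± 0.12 (adjusted p = 0.000559). Over the whole list H3K27ac was tested at 25 sites. It was higher at 6, among them the site near Klf6 (1.24 ± 0.15), and lower at 8, the Hnf4a site included. Of all tested regions with a site 22.6% were higher and 26.3% lower. A higher ONECUT2 mean was thus not particular to this list, and H3K27ac was called in both directions, as over all regions with a site.

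The ONECUT family itself carried sites at 4 of the 5 listed genes, the related Cux1 and Cux2 included. Of all protein-coding genes 20.7% had a site. Onecut2 had 2 sites inside the gene, of which the stronger went from 28.2 to 175 mean reads in the authors' table and the other from 6.99 to 14.95. Neither lay in an H3K27ac region. The site 14.9 kb from Onecut1 rose from 3.92 to 28.4 reads, and H3K27ac was higher by 0.81 ± 0.21 (adjusted p = 0.000602). Onecut3 had a site 19.4 kb away, from 28.02 to 97.0 reads, with an H3K27ac log2 fold of 0.46 ± 0.40 (adjusted p = 0.390). Cux1 had 3 sites and Cux2 none. At the Cux1 site within 2 kb of its start H3K27ac was lower by -0.51 ± 0.12 (adjusted p = 0.000249). Over the 4 tested sites of the family it was thus higher at 1 and lower at 1.

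Stem cell and Wnt genes had a site at 14 of 24 (58.3%), where 20.7% of all protein-coding genes had one. All 24 sites were higher in the authors' table, as were 7261 of all 7268 listed sites. H3K27ac was tested at 11, higher at 2 and lower at 5, beside 22.6% and 26.3% of all tested regions with a site. Lgr5, the stem cell marker whose locus carries the GFP and toxin receptor allele in both arms, had 3 sites. The one inside the gene at chr10:115505692-115506092 rose least, from 59.0 to 97.0 mean reads, while H3K27ac in its region fell from 64.4, 53.1 and 56.3 CPM to 10.4, 8.15 and 11.8 CPM (log2 fold -2.49 ± 0.15, adjusted p = 8.19e-49), the smallest adjusted p among lower regions with a site. At a second Lgr5 site the log2 fold was -2.18 ± 0.25, and at the third, 36.8 kb outside the gene, H3K27ac was higher by 0.51 ± 0.17. H3K27ac was also lower at a site 28.7 kb from Smoc2, a stem cell gene (-1.57 ± 0.16). It was higher at a site in Tnfrsf19, known as Troy (1.29 ± 0.22). Rnf43, a Wnt feedback gene, had 4 sites, with rises of 2.03 to 3.44 in the authors' means.

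Among enterocyte genes, 9 of 16 proximal (56.2%) and 3 of 13 distal genes had a site, and the difference between the lists was not tested. Of all protein-coding genes 20.7% had a site, and 26.6% of those with an H3K27ac region. Among proximal sites H3K27ac was higher at 3 of 6 tested, including Rbp2, a retinol-binding protein gene, whose site went from 46.6 to 179 mean reads (H3K27ac 0.79 ± 0.17). It was lower near the fructose transporter gene Slc2a5 (-1.27 ± 0.18). Brush border genes had a site at 12 of 24, with H3K27ac higher at 1 and lower at 3 of 8 tested sites. Of all tested regions with a site 22.6% were higher and 26.3% lower. Mgam, a disaccharidase gene, had both a lower site inside the gene (-0.83 ± 0.12) and the only higher one, 25.9 kb away (0.36 ± 0.15, adjusted p = 0.0412). Eps8, a microvillus protein gene, had a lower site (-0.69 ± 0.11) and one not called (-0.06 ± 0.16). Krt20, a keratin of mature enterocytes, had 3 sites, one of which rose from 4.89 to 59.9 reads and none of which lay in an H3K27ac region.

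Other signalling lists included strong single sites. Of all protein-coding genes 20.7% had a site, and 26.6% of those with an H3K27ac region. The BMP and ID list had a site at 10 of 21 genes, with H3K27ac higher at 4 of 5 tested sites and lower at none. Of all tested regions with a site 22.6% were higher and 26.3% lower. The site nearest Smad6, an inhibitor of BMP signalling, lay 27.3 kb away and went from 76.1 to 264 mean reads. H3K27ac there was 39.6, 41.3 and 37.5 CPM in the control and 119, 112 and 101 CPM with RANKL. At the site assigned to Id2, 85.2 kb away, the log2 fold was 1.00 ± 0.12. In the Notch list (7 of 16), the site near Lfng, a modifier of Notch receptors, had an H3K27ac log2 fold of 2.03 ± 0.16, and that near Hes1, a Notch target, 0.57 ± 0.18. Of the ETS family (5 of 16), Etv6 had 4 sites, of which one inside the gene went from 3.13 to 99.2 reads and one 44.3 kb away from 4.09 to 121 reads with H3K27ac higher by 1.95 ± 0.25. Over the 6 tested ETS sites H3K27ac was higher at 2 and lower at 2, those in Etv5 (-0.74 ± 0.18) and Elf4 (-0.45 ± 0.17). The fetal and YAP list (10 of 19) was led by a site 55.2 kb from Anxa3, from 3.59 to 72.0 reads. Of its 9 sites with tested H3K27ac, 2 were higher and 2 lower. In the AP-1 and NFAT list (4 of 16), the weaker-rising Fos site had lower H3K27ac (-0.71 ± 0.11).

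The goblet, Paneth, tuft, enteroendocrine, lipid metabolism, cell cycle, and interferon and MHC lists had sites at 20.0% to 33.3% of their genes. The share was 20.7% over all protein-coding genes and 26.6% over those with an H3K27ac region. A site was assigned to 5 of 16 goblet genes, 3 of 12 Paneth genes, 6 of 18 tuft genes, 4 of 20 enteroendocrine genes and 5 of 20 lipid metabolism genes, and to 4 of 18 cell cycle genes and 5 of 25 interferon and MHC genes. Among them were Tff3, a goblet cell peptide gene (6.03 to 61.6 mean reads in the authors' table, H3K27ac 1.38 ± 0.19), and Tac1, a neuropeptide gene. The Tac1 site lay 81.3 kb away (7.93 to 128 reads, H3K27ac 1.53 ± 0.27). Irf2 had 6 sites, with rises from 0.46 to 3.27. H3K27ac was higher at 0 and lower at 2 of 2 tested cell cycle sites. It was higher at 1 and lower at 2 of 4 lipid metabolism sites, and likewise of 5 interferon and MHC sites. Goblet sites had 2 higher of 3 tested, Paneth sites 1 of 2 and enteroendocrine sites 1 of 1, with none lower. Of 5 tuft sites 2 were higher and 1 lower. Of all tested regions with a site 22.6% were higher and 26.3% lower. Of 14 housekeeping genes 6 had a site, 42.9%, so shares of that size are not particular to the intestinal lists. In all, 165 of 423 listed genes had a site (39.0%).

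**Figure D5:**
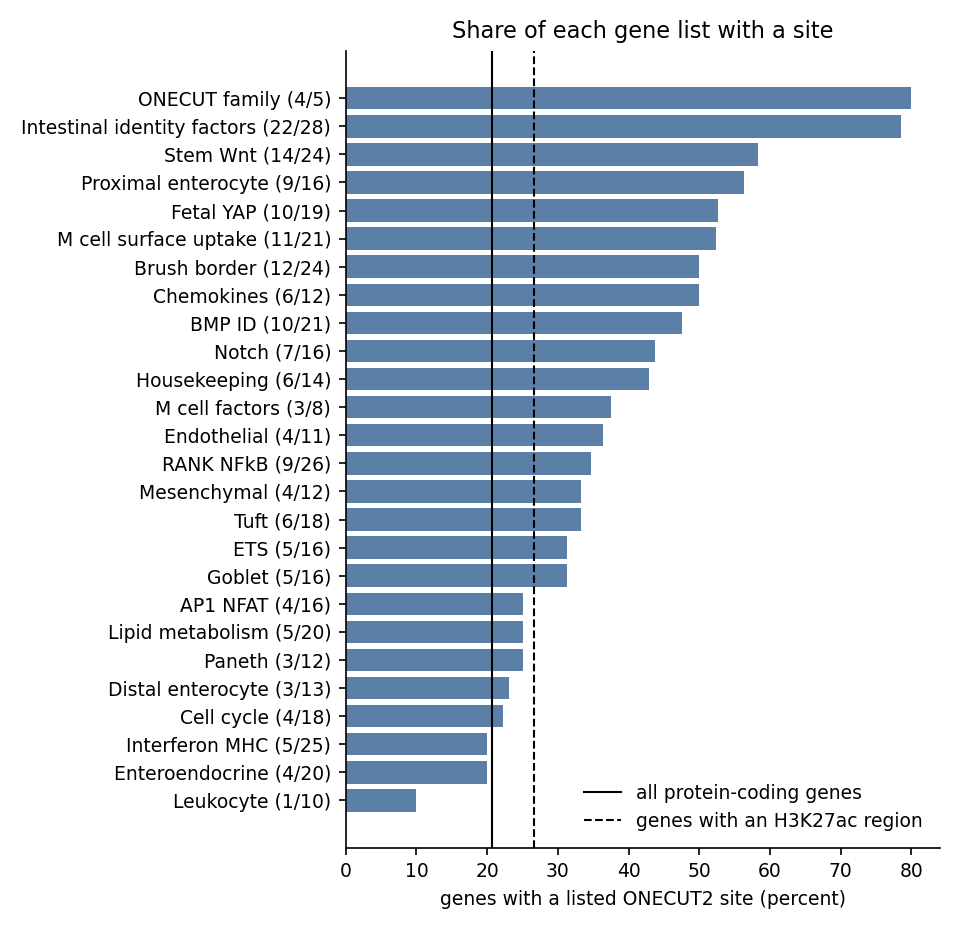
Percent of the genes of each list with at least 1 listed ONECUT2 site as nearest gene within 100 kb (bars, with counts beside the names). The solid line is the 20.7% of all protein-coding genes and the dashed line the 26.6% of those with an H3K27ac region. The ONECUT family (4 of 5) and intestinal identity factors (22 of 28) have the longest bars and leukocyte genes (1 of 10) the shortest.

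Markers were read from H3K27ac, since no RNA was measured here. The regions of 23 of 24 brush border genes summed to 3178 to 3441 CPM in the control libraries and 2497 to 2663 CPM with RANKL. Of the 10 leukocyte genes 8 had a region, Cd3e being one of those without, and they summed to 155 to 172 CPM in the control and 173 to 187 CPM with RANKL. Mesenchymal genes (11 of 12 with a region) summed to 287 to 293 and 325 to 350 CPM, and endothelial genes (10 of 11) to 502 to 527 and 536 to 549 CPM. The leukocyte, mesenchymal and endothelial sums were each higher with RANKL, and the brush border sum was lower, all with no overlap of the libraries. The part of the non-epithelial sets in the results was not tested. Of single epithelial genes, Epcam (379 to 425 and 449 to 463 CPM) and Cdx2 (243 to 278 and 283 to 301 CPM) were also higher without overlap. Vil1 (165 to 191 and 111 to 126 CPM) and Krt8 (191 to 214 and 134 to 139 CPM) were lower without overlap. Lack of overlap was thus common to all the markers read and does not set the non-epithelial ones apart. The share of all regions without overlap was not counted. Listed sites were assigned to 1 leukocyte gene (Itgam), 4 of 12 mesenchymal genes and 4 of 11 endothelial genes. Of all protein-coding genes 20.7% had a site. A site 36.4 kb from Dcn, a fibroblast proteoglycan gene, went from 1.42 to 26.5 mean reads in the authors' table with H3K27ac higher by 2.68 ± 0.33. In such mixed cultures, more cells of a kind and more signal per cell cannot be told apart. H3K27ac totals over the regions ran from 5434172 to 9160267 reads in the control and from 2745451 to 3902301 with RANKL, so the RANKL libraries were shallower.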

How the data were processed

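ChIPmentation of ONECUT2 and H3K27ac was analysed in 3 RANKL-protocol and 3 ENR libraries each, and 2 inputs were not analysed here. The build was mm10 and DiffBind was used, per the submitters' processing notes. Version, aligner, peak caller and normalisation: not given in the sources used here. For ONECUT2 the authors' deposited table gives log2 mean normalised reads per condition and a log2 fold, with p-value and FDR, per site of 401 bp (1 is wider). Change is the difference of the 2 means, which are printed as reads. The authors' deposited H3K27ac table holds raw counts in 55050 regions of 2000 bp. The quasi-likelihood test of edgeR 4.0.16, run in R 4.3.3 after TMM and filterByExpr (54765 regions kept), gave calls at a Benjamini-Hochberg adjusted p under 0.05. CPM uses the TMM-scaled library size. Sites were joined to regions by an overlap of at least 1 bp. Whether region starts count from 0 is not given. Sites were assigned to the nearest protein-coding RefSeq gene span (GRCm38.p6) within 100 kb.

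The labels number libraries of both arms by differentiation experiment. Deviations of same-numbered libraries from their group means had correlations of 0.01, -0.03 and -0.01, so the pairing rests on the labels alone. The fit without the replicate block is reported.

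The sites and 26 gene lists (423 genes, all matched) were chosen with earlier results of these data known. Genes are named by rule: the 10 largest rises, the 10 highest RANKL means, all lower sites, the 10 genes with most sites, up to 4 members of each list by rise with those of most sites, the 5 smallest adjusted p for H3K27ac in each direction, and Onecut1, Onecut2, Onecut3, Spib, Sox8, Tnfrsf11a, Gp2 and Lgr5. Some list members with the clearest H3K27ac calls were named after their values were seen. A few named items are not reported here. The edgeR script was tested on simulated data.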

Additional observations from a re-analysis of the deposited data

How the results depend on the processing

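The median listed rise was 1.99 on the log2 scale, 1.86 in the authors' own fold column, 2.06 at an FDR up to 0.01 and 2.22 at up to 0.001. Regions with a site and higher H3K27ac numbered 662, and 560 to 847 under other settings. Those with lower H3K27ac numbered 769 and fell to 453 once the trend of fold with signal was removed, against 632 to 769 otherwise. With that trend removed, the log2 fold at the sites of Slc2a2 and Plin2, uncalled before at -0.04 and -0.03, became 0.27 and 0.30. Leaving out 1 library gave 572 to 624 higher and 640 to 721 lower regions, and a read-share difference of 0.343 to 0.452 percentage points. With the replicate block by experiment number, 639 were higher and 732 lower, and of 154 site results 5 lost their call. Of the same 154, 18 lost it with the trend removed, 15 with DESeq2, 8 with library size only and 8 to 13 without 1 library. The median log2 fold over all regions was 0.057 with TMM, 0.153 with library size only and 0.009 with the trend removed. A listed gene had a site in 165 cases, 117 within 10 kb (16.7% of all genes then had one) and 153 at an FDR up to 0.01. ONECUT2 values per library were not used here, so no spread stands beside those means.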

Other observations

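Among regions with an ONECUT2 site, 4 of the 5 smallest adjusted p for higher H3K27ac (all but Traf2) had a nearest gene on none of the gene lists. The lists hold 423 of 21896 protein-coding genes and 165 of the 4537 genes with a site, so most genes with a site are on no list. In the region 105 kb from Spata16, H3K27ac read 3.67, 3.85 and 3.56 CPM in the control libraries and 103, 92.7 and 91.9 CPM with RANKL, and the log2 fold was 4.67 ± 0.16 (SE, n = 3 and 3, adjusted p = 9.56e-122). Its ONECUT2 site had 2.60 and 26.3 mean reads in the authors' deposited table. Ptprr, a receptor tyrosine phosphatase gene, read 5.22, 4.29 and 5.63 CPM against 97.8, 88.5 and 89.0 CPM. The regions 88.6 kb from Btbd11 and in Piwil4 differed by 4.36 ± 0.16 and 3.51 ± 0.14 on the log2 scale. The control and RANKL libraries did not overlap at any of them, which follows from the choice of regions by adjusted p.

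H3K27ac was lower, with Lgr5, near Efna4 (an ephrin gene, -1.69 ± 0.14), in Hcar2 (a receptor for hydroxycarboxylic acids, -1.97 ± 0.17), near Tent5a (-1.66 ± 0.15) and near Rabep1. ONECUT2 means rose at all of these but Rabep1. At Hcar2 they went from 29.7 to 103 reads in the authors' table while H3K27ac went from 32.9, 39.4 and 36.6 CPM to 11.4, 9.96 and 7.23 CPM.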
